A study of Mus musculus with 10 samples.

Results

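The hormones and regulators of enteroendocrine cells were followed through mouse colonic organoids in which the nuclear receptor PPARγ was deleted or intact and the PPARγ agonist rosiglitazone was given or withheld. The group held 10 genes out of 18820 that carry a gene symbol of their own on the array. They were chosen by name: the peptide hormones Gcg, Pyy, Sct and Cck, the serotonin-synthesising enzyme Tph1, the secretory granule proteins Chga, Chgb and Cpe, and the transcription factors Neurog3 and Neurod1. Each was mapped to probe sets by the symbol in the platform annotation, and each of the 10 had exactly 1 probe set.

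Enteroendocrine cells are rare hormone-secreting cells of the gut epithelium. They arise from the same secretory progenitors as goblet and Paneth cells when Notch signalling is low, pass through a short Neurog3-positive stage, and store peptides or serotonin in dense-core granules that they empty into the blood in response to nutrients, bile acids and microbial metabolites. In the colon the main types are the L cells, which make proglucagon and peptide YY, and the enterochromaffin cells, which make serotonin.

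Organoids are epithelial cultures grown from intestinal crypts. Here they were grown in Matrigel from the colon of male mice on a C57BL/6J background, with Wnt, Noggin, R-spondin, EGF, nicotinamide and kinase inhibitors in the medium, and whole-transcript arrays were hybridised with their total RNA. Knockout mice (KO) were homozygous for Pparg with loxP sites around exons 1 and 2 and carried Cre under the villin promoter, which acts in the intestinal epithelium. The controls were wild-type (WT) littermates, and the sources used here state neither whether these carried floxed alleles or Cre nor the animals' age. Treatment lasted 24 h in every group, with rosiglitazone at 1 µM or with its vehicle alone, 0.1% DMSO. KO rosiglitazone replicates 1, 2 and 3 came from mice 46, 45 and 44, and KO vehicle replicates 1 and 2 from mice 46 and 44. WT rosiglitazone replicates 1, 2 and 3 came from mice 48, 42 and 47, and WT vehicle replicates 1 and 2 from mice 42 and 47, which gives 10 arrays from 6 mice. Mice 45 and 48 had no vehicle array. Values are the deposited log2 expression values of each probe set, so that a difference of 1 is a doubling, and values of an array are given in the order of replicates.

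The targeted gene, Pparg, read 8.78, 7.37 and 8.41 in KO rosiglitazone arrays, 8.58 and 8.47 in KO vehicle arrays, 8.30, 7.59 and 7.93 in WT rosiglitazone arrays and 8.34 and 8.41 in WT vehicle arrays. It was not lower in KO arrays: both KO vehicle arrays read above both WT vehicle arrays, and the groups overlapped under rosiglitazone. Separation under vehicle, in either direction, was seen for 39.1% of all probe sets. KO minus WT was 0.14 (SE 0.38, limma adjusted p = 0.96) under vehicle and 0.25 (SE 0.31, adjusted p = 0.999) under rosiglitazone, or 0.66 without KO rosiglitazone replicate 2 and -0.05 without mouse 46. The positions of its probes relative to exons 1 and 2 were not given, so this reading checks neither the deletion nor the labels. Arrays of a group correlated at r from 0.986 to 0.996 over the annotated probe sets. The first principal component (27.4% of the variance) set apart both arrays of mouse 46, at 31.75 and 39.3, from the other arrays, which lay from -19.6 to 4.1. Values without this mouse, or without KO rosiglitazone replicate 2, stand beside the differences they moved most.

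The sequences upstream of 4 of these genes are shown because, together with Cpe, they are the 5 members whose spread over the 10 arrays exceeded that of 95% of olfactory and vomeronasal receptor genes, which colonic epithelium is not known to express. They are the 200 bases before the RefSeq gene start (build GRCm38.p6, 5′ to 3′ on the gene's strand), and Cpe is not in the promoter table used. Without KO rosiglitazone replicate 2 only Cpe (SD 0.56) stayed above that limit of 0.34. Chga, Chgb, Gcg and Neurog3 then had SDs of 0.31, 0.28, 0.27 and 0.29, so their choice rests on that array. Capitals mark a cyclic AMP response element (TGACGTCA) or its TGACGT part, an E-box of the type that NEUROD1 and related bHLH factors bind (CAGCTG), and a TATA box (TATAAA on the gene's strand).
Chga, chr12:102554741-102554940, plus strand: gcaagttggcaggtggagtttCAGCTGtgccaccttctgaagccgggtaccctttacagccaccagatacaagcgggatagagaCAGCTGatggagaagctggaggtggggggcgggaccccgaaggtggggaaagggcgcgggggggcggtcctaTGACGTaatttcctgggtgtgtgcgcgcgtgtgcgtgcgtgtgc
Chgb, chr2:132781442-132781641, plus strand: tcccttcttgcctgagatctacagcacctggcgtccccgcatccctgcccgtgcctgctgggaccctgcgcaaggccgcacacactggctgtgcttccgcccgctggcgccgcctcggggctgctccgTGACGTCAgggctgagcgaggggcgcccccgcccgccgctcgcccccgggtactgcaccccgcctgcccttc
Gcg, chr2:62483654-62483853, minus strand: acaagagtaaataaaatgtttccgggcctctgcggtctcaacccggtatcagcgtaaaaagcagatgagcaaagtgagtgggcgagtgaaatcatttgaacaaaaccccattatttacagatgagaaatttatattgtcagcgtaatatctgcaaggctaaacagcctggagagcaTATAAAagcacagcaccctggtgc
Neurog3, chr10:62132890-62133089, plus strand: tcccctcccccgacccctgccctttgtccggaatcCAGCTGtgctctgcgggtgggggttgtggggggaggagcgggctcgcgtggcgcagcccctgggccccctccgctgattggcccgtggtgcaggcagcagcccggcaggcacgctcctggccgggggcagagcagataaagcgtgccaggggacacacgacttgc
The 2 chromogranin genes shared a TGACGT match, at -44 to -39 in Chga and at -72 to -65, as the full palindrome TGACGTCA, in Chgb. Of 32851 promoters in the table, each searched from 250 bases before to 50 bases after the start, 7.51% held TGACGT on either strand and 1.79% held TGACGTCA, which contains it. CAGCTG, which 16.3% of promoters held, was at -165 to -160 in Neurog3 and at -179 to -174 and -116 to -111 in Chga. Outside the sequences shown, it was at 30 to 35 in Chgb and at -132 to -127 in Sct. Gcg, the proglucagon gene, had TATAAA at -24 to -19, and 8.32% of promoters held these letters on the gene's strand. Outside the sequences shown, Sct had them at -28 to -23 and Chga at 5 to 10. The PPAR response element in its strict form, AGGTCANAGGTCA on either strand, was in 13 of the 32851 promoters and in 0 of the 11 promoters listed for 9 of the 10 members. Its half-site AGGTCA, in 16.3% of promoters, was in those of Sct and Tph1. These matches describe letters in a window.

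Whether a member was measured above the level of unexpressed genes was read from the same receptor genes. The 95th percentile of the means of 1155 such genes was 2.65, taken here as the upper limit of the dim range. Of the 10 members 6 had a mean above it, and these were the hormones Pyy, Sct and Gcg and all of the granule proteins, Cpe, Chga and Chgb. The other 4, Cck, Tph1, Neurog3 and Neurod1, averaged within the dim range. Gcg passed narrowly, with a mean of 2.76, or 2.67 without KO rosiglitazone replicate 2. Its group mean exceeded the limit in KO rosiglitazone arrays only (3.16). It was 2.62 in KO vehicle, 2.57 in WT rosiglitazone and 2.58 in WT vehicle arrays, so contrasts of Gcg set values against the dim range. At the 99th percentile (3.35) Cpe, Chga and Pyy remained above the limit, and only Cpe exceeded the median of all annotated probe sets, 4.51. Probes differ in how brightly they bind, so the levels of different genes were not set against each other. Bulk RNA cannot tell fewer enteroendocrine cells from less RNA per cell.

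**Figure D1:**
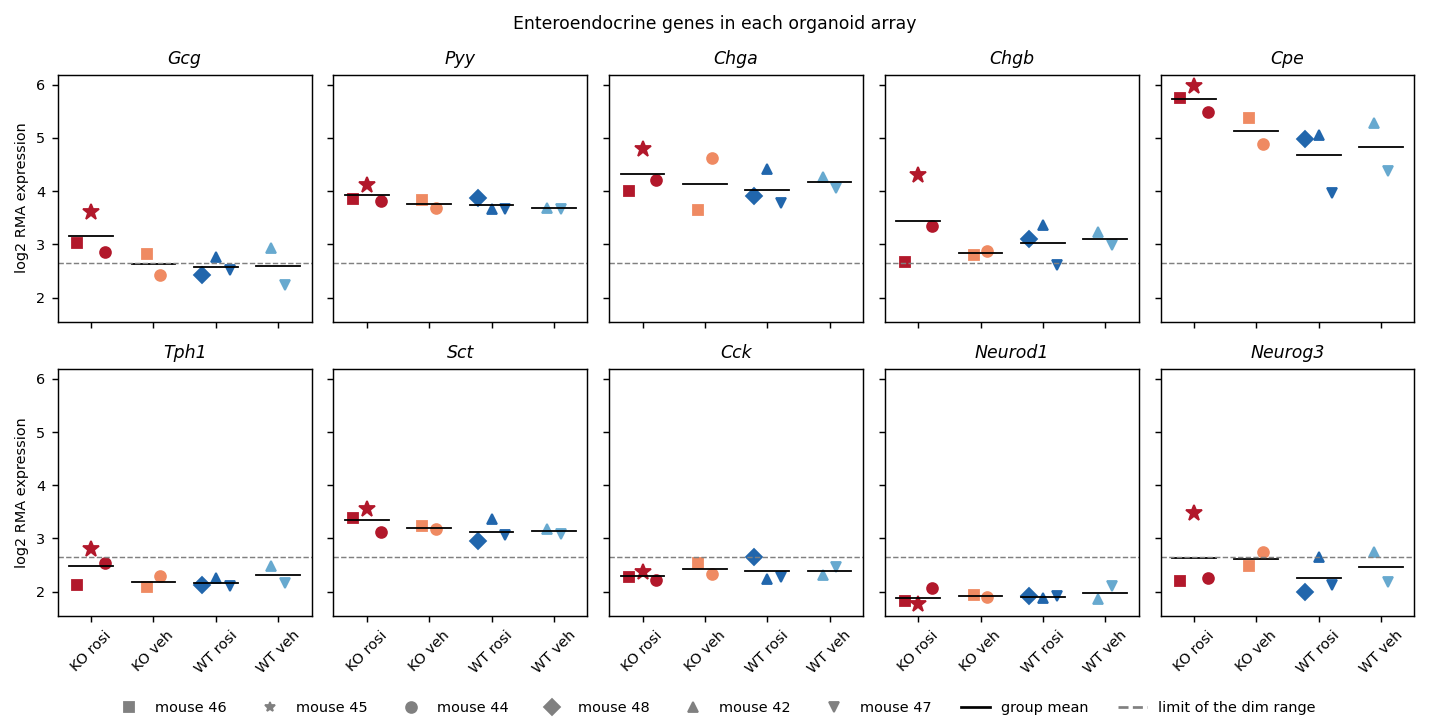
Log2 expression of the 10 enteroendocrine genes in each of the 10 arrays (points, shaped by mouse) by group, with group means as black lines and the dim-range limit of 2.65 as a dashed line. Cpe lay at 5.48 to 5.98 in KO rosiglitazone arrays and at 3.97 to 5.06 in WT rosiglitazone arrays, and the star of mouse 45, KO rosiglitazone replicate 2, was the highest point in 8 of the 10 panels.

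Gcg encodes proglucagon, from which L cells cut glucagon-like peptides 1 and 2. It read 3.03, 3.60 and 2.85 in KO rosiglitazone arrays, 2.82 and 2.43 in KO vehicle arrays, 2.42, 2.77 and 2.51 in WT rosiglitazone arrays and 2.93 and 2.24 in WT vehicle arrays. All 3 KO rosiglitazone arrays lay above both KO vehicle arrays and above all 3 WT rosiglitazone arrays, but 1 WT vehicle array lay among them. KO minus WT under rosiglitazone was 0.59 (SE 0.23, 95% interval 0.08 to 1.10, unadjusted p = 0.0277), with a limma adjusted p of 0.999, and 0.37 without KO rosiglitazone replicate 2. Rosiglitazone minus vehicle was 0.53 (SE 0.26, adjusted p = 1) in KO organoids, or 0.32 without that array, and -0.02 (SE 0.26, adjusted p = 1) in WT organoids.

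Pyy encodes peptide YY, the satiety peptide that L cells secrete together with the proglucagon products. Its readings were 3.86, 4.11 and 3.82 in KO rosiglitazone arrays, 3.84 and 3.68 in KO vehicle arrays, 3.87, 3.67 and 3.66 in WT rosiglitazone arrays and 3.69 and 3.67 in WT vehicle arrays. The groups overlapped in every comparison. KO rosiglitazone replicate 2 was the highest array, and the other 9 spanned 3.66 to 3.87. The SD over 10 arrays was 0.15, and 0.09 without that array. Both were below the receptor genes' median SD of 0.21 and the 0.34 that 95% of them did not exceed. KO minus WT was 0.20 (SE 0.12, adjusted p = 0.999) under rosiglitazone, or 0.11 without that array, and 0.08 (SE 0.15, adjusted p = 0.938) under vehicle, or 0.00 without mouse 46.

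Sct encodes secretin, the hormone that stimulates bicarbonate secretion and that enteroendocrine cells of several types make in mice. It read 3.39, 3.55 and 3.12 in KO rosiglitazone arrays, 3.23 and 3.18 in KO vehicle arrays, 2.95, 3.36 and 3.06 in WT rosiglitazone arrays and 3.18 and 3.09 in WT vehicle arrays. Every array was above the dim range, and the largest group difference, KO minus WT under rosiglitazone, was 0.23 (SE 0.15, 95% interval -0.09 to 0.56, adjusted p = 0.999). It was 0.13 without KO rosiglitazone replicate 2 and 0.05 with only the 4 mice that gave both treatments. The SD of Sct over 10 arrays was 0.18, below the receptor genes' median of 0.21, and 0.14 without that replicate. Cck encodes cholecystokinin, a hormone mainly of the small intestine. It lay between 2.22 and 2.66 in all arrays, in the dim range in 9 of 10, and was highest in WT rosiglitazone replicate 1.

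Chga and Chgb encode chromogranins A and B, acidic proteins that help to build dense-core granules. Chga read 4.0, 4.79 and 4.20 in KO rosiglitazone arrays, 3.64 and 4.63 in KO vehicle arrays, 3.90, 4.41 and 3.78 in WT rosiglitazone arrays and 4.27 and 4.06 in WT vehicle arrays. The 2 KO vehicle arrays were the lowest and the second highest of all 10, so that the mice of that group differed more than any group means did. KO minus WT was 0.30 (SE 0.28, adjusted p = 0.999) under rosiglitazone, or 0.07 without KO rosiglitazone replicate 2 and 0.47 without mouse 46, and -0.03 (SE 0.34, adjusted p = 0.99) under vehicle, or 0.46 without mouse 46. Within mice the response of Chga had no common sign, at 0.36 and -0.43 in KO mice 46 and 44 and at 0.13 and -0.29 in WT mice 42 and 47.

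Chgb read 2.67, 4.30 and 3.34 in KO rosiglitazone arrays, 2.80 and 2.87 in KO vehicle arrays, 3.11, 3.37 and 2.61 in WT rosiglitazone arrays and 3.24 and 2.98 in WT vehicle arrays. One array stood apart, KO rosiglitazone replicate 2, which was 0.93 above the next. The SD over 10 arrays was 0.49 and fell to 0.28 without it. KO minus WT under rosiglitazone was 0.40 (SE 0.34, adjusted p = 0.999) with that array and -0.03 without it, and rosiglitazone minus vehicle in KO organoids was 0.60 (SE 0.38, adjusted p = 1) with it and 0.17 without it. Without mouse 46 these differences were 0.79 and 0.94. Under vehicle both KO arrays lay below both WT arrays, with a difference of -0.27 (SE 0.42, adjusted p = 0.927).

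Cpe encodes carboxypeptidase E, which trims the basic residues left on prohormones after cleavage and is also made outside the endocrine lineage. It read 5.75, 5.98 and 5.48 in KO rosiglitazone arrays, 5.37 and 4.89 in KO vehicle arrays, 4.98, 5.06 and 3.97 in WT rosiglitazone arrays and 5.28 and 4.37 in WT vehicle arrays. All 3 KO rosiglitazone arrays lay above the other 7, and both arrays of WT mouse 47 were the lowest of all. The mean was 5.74 ± 0.25 (SD, n = 3) in KO rosiglitazone arrays, against 4.67 ± 0.61 (SD, n = 3) in WT rosiglitazone arrays. That difference, 1.07 (SE 0.31, 95% interval 0.37 to 1.76), had the smallest p of the members in any comparison, 0.0064 unadjusted, and a limma adjusted p of 0.874. It was 0.95 without KO rosiglitazone replicate 2, 1.26 without WT rosiglitazone replicate 2 and 0.72 without WT rosiglitazone replicate 3, the lowest reading, and the adjusted p stayed between 0.532 and 1 in the 18 alternative fits.

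The same gene gave the clearest contrast of responses within mice. Rosiglitazone minus vehicle was 0.38 and 0.59 in KO mice 46 and 44, against -0.21 and -0.40 in WT mice 42 and 47. Both KO mice were above 0 and both WT mice below it. Such opposite signs occurred for 3 of the 10 members (Cpe, Tph1 and Pyy), against 11.8% of the probe sets tested, and this share was not tested. In the fit over all 10 arrays the response was 0.61 (SE 0.35, adjusted p = 1) in KO organoids and -0.15 (SE 0.35, adjusted p = 1) in WT organoids, and the difference between them was 0.76 (SE 0.50, 95% interval -0.34 to 1.86, adjusted p = 1). With the mouse as a fixed block, which compares the treatments inside each mouse, the KO response was 0.49, the WT response -0.30 and the difference 0.79, and it did not pass the threshold either.

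**Figure D2:**
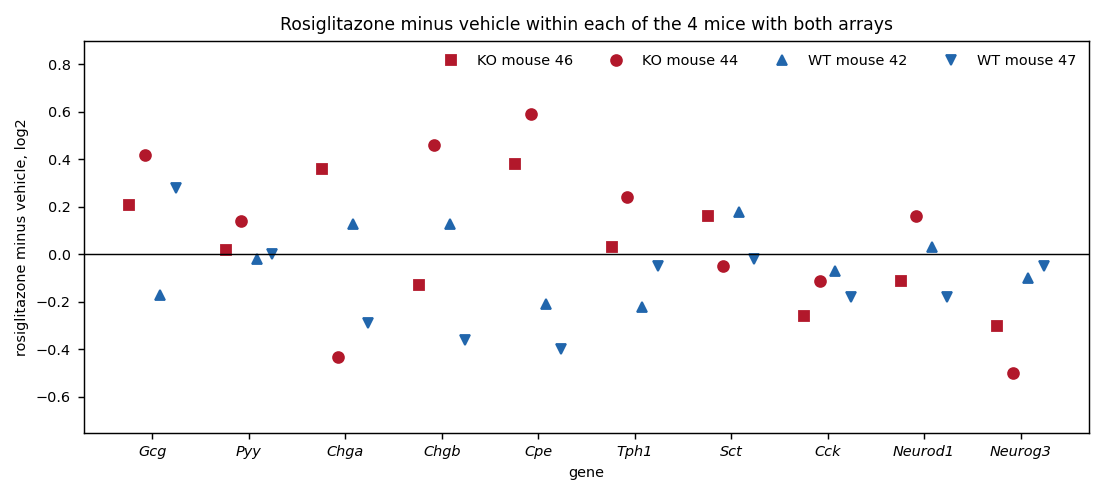
Rosiglitazone minus vehicle (log2) inside each of the 4 mice that gave both arrays, KO mice in red and WT mice in blue, for the 10 enteroendocrine genes. Cpe was positive in both KO mice (0.38 and 0.59) and negative in both WT mice (-0.21 and -0.40), whereas Chga had 1 mouse of each sign in both genotypes.

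Tph1 encodes tryptophan hydroxylase 1, the first and rate-limiting enzyme of serotonin synthesis in enterochromaffin cells. It read 2.12, 2.81 and 2.54 in KO rosiglitazone arrays, 2.09 and 2.29 in KO vehicle arrays, 2.13, 2.25 and 2.11 in WT rosiglitazone arrays and 2.48 and 2.16 in WT vehicle arrays. Only KO rosiglitazone replicate 2 was above the dim range. The response to rosiglitazone was 0.30 (SE 0.19, adjusted p = 1) in KO organoids, or 0.14 without that array, and -0.16 (SE 0.19, adjusted p = 1) in WT organoids.

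Neurog3 encodes the bHLH factor without which no enteroendocrine cells form in the mouse intestine, and Neurod1 a bHLH factor downstream of it. Neurog3 read 2.20, 3.47 and 2.25 in KO rosiglitazone arrays, 2.49 and 2.75 in KO vehicle arrays, 1.99, 2.65 and 2.13 in WT rosiglitazone arrays and 2.75 and 2.18 in WT vehicle arrays. It averaged in the dim range, but its SD of 0.44 exceeded the 0.34 of the receptor genes' 95th percentile, and 4 arrays lay above 2.65. Without KO rosiglitazone replicate 2 the SD was 0.29, below that percentile. KO rosiglitazone replicate 2 was 0.71 above the next array. The KO response to rosiglitazone was 0.02 (SE 0.36, adjusted p = 1) with that array and -0.40 without it, while KO minus WT under rosiglitazone was 0.38 (SE 0.32, adjusted p = 0.999) with it, -0.03 without it and 0.60 without mouse 46. In each of the 4 mice with both arrays Neurog3 read lower under rosiglitazone, by amounts between -0.50 and -0.05. The same was true of Cck, also in the dim range, by amounts between -0.26 and -0.07. How many probe sets had 1 sign in all 4 mice was not counted, so no drug effect is read from this. Neurod1 lay between 1.76 and 2.10 in every array, inside the dim range, with an SD of 0.10 that was below the receptor genes' median of 0.21.

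Across the 10 genes and 5 comparisons, 0 of 50 differences passed the adjusted threshold of 0.05 in limma, and 2 of 50 had an unadjusted p under 0.05, those of Gcg and Cpe for KO against WT under rosiglitazone. Over the 23099 annotated probe sets tested, percent called was 0 for rosiglitazone against vehicle in KO and in WT organoids, 0 for KO against WT under vehicle, 0.0216 (5 probe sets) for KO against WT under rosiglitazone and 0 for the difference of responses. Unadjusted p-values under 0.05 were counted for 706, 229, 1314, 1110 and 536 probe sets in these comparisons. With at most 5 calls among 23099 probe sets, nearly any 10 genes would hold 0 calls. The members' share of calls thus cannot be told from the background in any of the 5 comparisons.

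Groups that do not overlap were common in a design of 2 and 3 arrays. Gcg and Cpe were higher in all KO rosiglitazone than in all KO vehicle arrays, which is 2 of 10 members against 13.7% of all probe sets in either direction. In WT organoids 0 of 10 members separated rosiglitazone from vehicle, against 15.4%. Under vehicle Sct was higher in both KO arrays than in both WT arrays (3.23 and 3.18 against 3.18 and 3.09, separated beyond the printed decimals) and Chgb was lower, which is 2 of 10 against 39.1%. Under rosiglitazone Gcg and Cpe were higher in all 3 KO than in all 3 WT arrays, which is 2 of 10 against 8.69%. None of these shares was tested against the background.

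The median member difference was 0.18 for KO rosiglitazone minus KO vehicle, with 8 of 10 members above 0, and 0.07 without KO rosiglitazone replicate 2. The median over all genes was -0.02. In WT organoids the median member response was -0.07, with 2 of 10 above 0, beside 0.02 over all genes. KO minus WT had a median of 0.31 under rosiglitazone, with 8 of 10 above 0, and 0.09 without that array, beside 0.00 over all genes. Under vehicle it was 0.04, with 6 of 10 above 0, beside 0.03 over all genes. The size of the median shift among KO rosiglitazone arrays thus rested mostly on a single array. Its direction changed less, as 7 of 10 members stayed above 0 without that array in both comparisons. For the KO response the 95% intervals of the 10 members ran from -0.78 (Neurog3) to 1.45 (Chgb). There, differences of more than a doubling upwards stay within the intervals of the most variable genes. For the WT response the intervals ran from -1.01 (Neurog3) to 0.77 (Chgb), so none reached a doubling upwards.

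**Figure D3:**
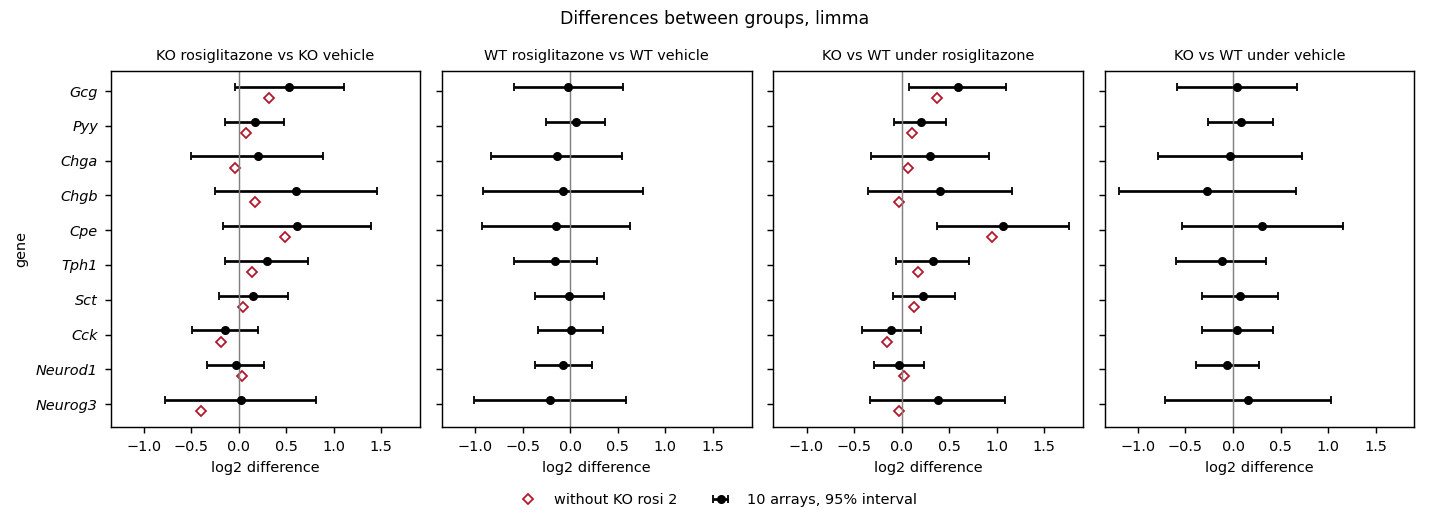
Log2 differences of the 10 enteroendocrine genes in 4 comparisons (black points, limma fit over 10 arrays, bars are 95% intervals), with the value without KO rosiglitazone replicate 2 as open red diamonds where that array entered the comparison's effect. The diamonds lay closer to 0 for Chgb, Gcg and Tph1 in both comparisons with KO rosiglitazone, while Cpe under rosiglitazone was 1.07 with the array and 0.95 without it.

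KO rosiglitazone replicate 2, from mouse 45, was the highest of the 10 arrays for 8 of the 10 members, all but Cck and Neurod1. Over all genes, percent highest in that array was 11.6. The members' mean deviation from their own means was 0.55 there and between -0.32 and 0.07 in the other 9 arrays. At the low end was WT rosiglitazone replicate 3 (mouse 47), where 0 of 10 members exceeded their own mean. Mouse 45 had no vehicle array, so whether this mouse also read high without the drug was not measured.

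**Figure D4:**
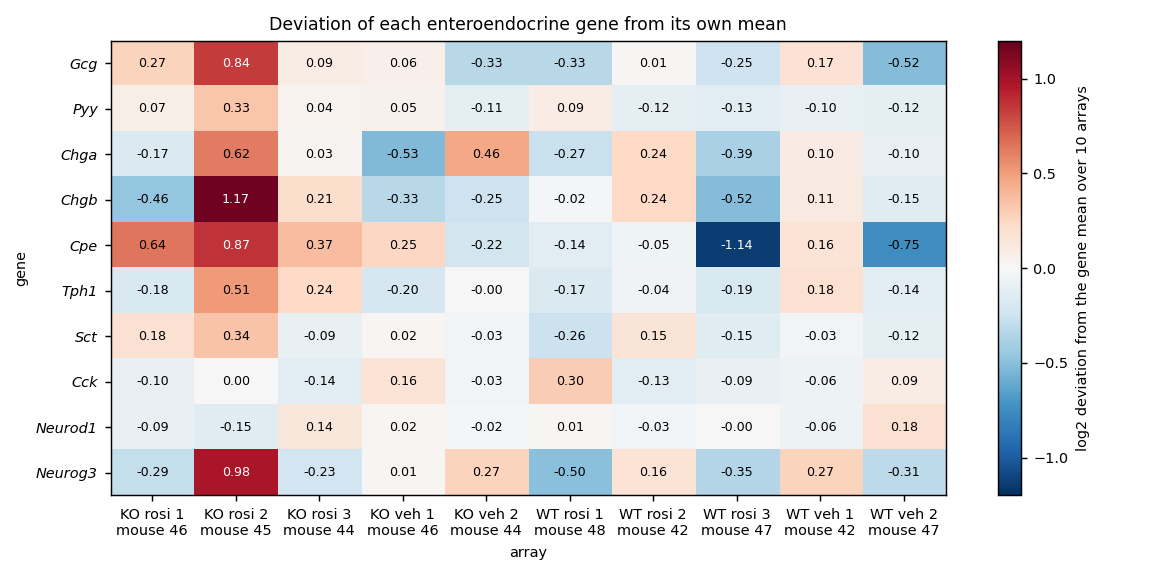
Deviation (log2) of each enteroendocrine gene from its own mean over the 10 arrays, with genes as rows and arrays as columns. The column of KO rosiglitazone replicate 2 holds deviations up to 1.17 (Chgb), and Neurod1 and Cck have no deviation beyond 0.30 in any array.

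Markers of other secretory cells were high in the same array. Of 18 goblet cell genes measured, 13 (72.2%) were highest in KO rosiglitazone replicate 2, and of 13 deep crypt secretory and Paneth genes 7 (53.8%). The mean level of the goblet list was 6.03 in that array and 3.67 to 4.91 in the other 9, and that of the deep crypt and Paneth list was 5.27 against 3.81 to 4.41. Muc2, the main secreted mucin of the colon, read 8.47 there, and 3.92 and 6.59 in KO rosiglitazone replicates 1 and 3. Reg4, which marks the deep crypt secretory cells of the colon, read 7.10 there, and 2.49 and 5.29 in these other replicates. Atoh1, the bHLH factor that commits progenitors to the secretory lineage, read 4.04, and 2.47 and 3.07 in the other replicates. Muc2, Reg4 and Atoh1 were picked for description after their values were seen. Of 13 stem and proliferation genes 8 were also highest in this array, with a list mean of 7.86 against 7.20 to 7.66 in the other 9. Their part in the members' values was not tested.

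**Figure D5:**
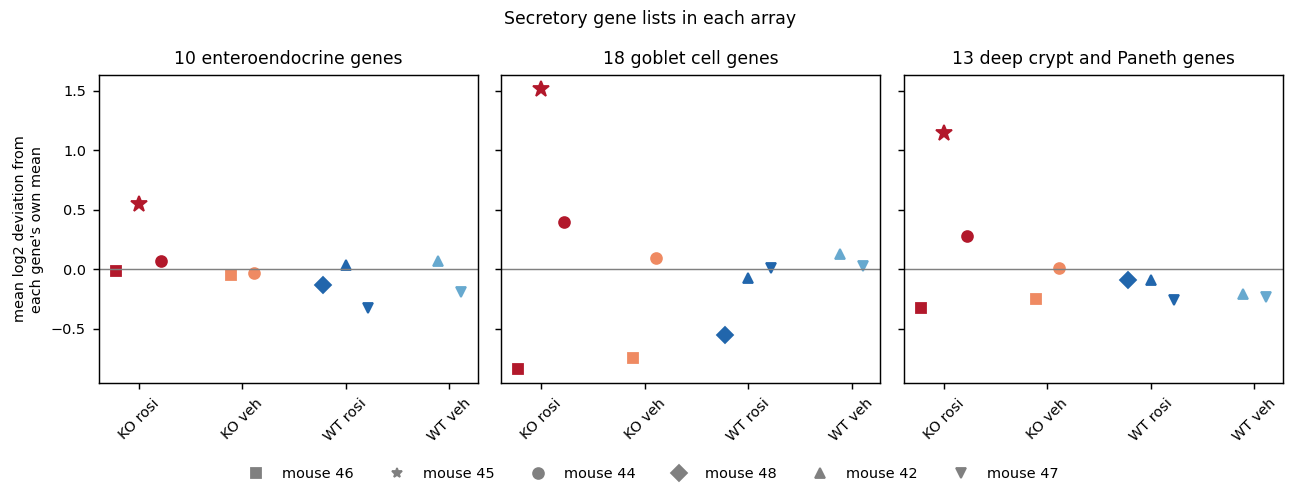
Mean log2 deviation from each gene's own mean, over the 10 enteroendocrine genes, 18 goblet cell genes and 13 deep crypt secretory and Paneth genes, for each array (points, shaped by mouse) by group. The star of mouse 45 was the highest point of each panel, at 0.55 for the enteroendocrine genes and at 1.52 and 1.15 for the goblet and the deep crypt lists.

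Markers of cells outside the epithelium that share some of these genes were above the dim range to a degree that differed by list. Of 11 mast cell genes 2 were above the dim range, Gata2 and Hdc, and the defining proteases Cma1, Mcpt4 and Cpa3 were in it. The list mean was 2.14 to 2.29 in KO rosiglitazone arrays, 2.24 to 2.34 in KO vehicle arrays, 2.17 to 2.39 in WT rosiglitazone arrays and 2.11 to 2.25 in WT vehicle arrays, and 0 of 11 were highest in KO rosiglitazone replicate 2. Of 10 neuronal and glial genes measured, 6 were above the dim range, led by Ret, Uchl1 and Nefl, but Elavl4 and S100b were in it. Nefm, picked after its values were seen, read 2.69 to 3.54 in KO arrays and 2.33 to 2.57 in WT arrays. Of the 10 genes, KO minus WT was above 0 for 8 and below 0 for 2 under each treatment, and 0 passed the adjusted threshold. Their list mean ran from 2.70 to 2.98 in KO rosiglitazone, from 2.92 to 2.97 in KO vehicle, from 2.65 to 2.76 in WT rosiglitazone and from 2.68 to 2.74 in WT vehicle arrays, and 0 of 10 were highest in replicate 2. Of 10 fibroblast and muscle genes 6 were above the dim range and of 8 immune and endothelial genes 0, and in each of these lists 1 gene was highest in replicate 2. Among other epithelial cells, 8 of 13 tuft cell genes and 13 of 15 colonocyte genes were above the dim range, and of all 13 tuft and 15 colonocyte genes 2 and 4 were highest there. The part of these cells in the members' values was not tested.

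In the wider enteroendocrine gene lists the same array was highest for fewer genes, a contrast with the members that was not tested. Among 16 other gut hormones 3 were highest there, among 33 genes of granules and prohormone processing 4, among 11 of serotonin handling 1, among 22 transcription factors 4 and among 22 nutrient and metabolite receptors 3. Their shares ran from 9.1% (serotonin handling) to 18.8% (other hormones). Of all genes 11.6% were highest there, and of genes above the dim range 15.2%, so these lists lay near the background. In none of these lists did a gene pass the adjusted threshold in any of the 5 comparisons in limma. At an unadjusted p under 0.05 there were at most 2 genes of a list in a comparison.

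Of the 16 other hormones 10 were above the dim range. Vip, the vasoactive peptide better known from enteric neurons, varied most. It read 5.65, 3.49 and 4.41 in KO rosiglitazone arrays, 5.54 and 3.90 in KO vehicle arrays, 3.04, 3.24 and 3.42 in WT rosiglitazone arrays and 3.42 and 3.24 in WT vehicle arrays. All 5 KO arrays lay above all 5 WT arrays, most of all those of mouse 46. The share of probe sets that separated in this way was not counted. By treatment it was 39.1% under vehicle and 8.69% under rosiglitazone, in either direction. KO minus WT was 1.28 (SE 0.50, limma adjusted p = 0.999) under rosiglitazone and 1.39 (SE 0.61, adjusted p = 0.855) under vehicle. Without mouse 46 these were 0.72 and 0.57. Adm, which encodes adrenomedullin and is widely expressed in epithelia, read 6.61, 4.77 and 7.10 in KO rosiglitazone arrays, and between 6.14 and 7.01 in the other 7, so here replicate 2 was the lowest array. Gast (gastrin) lay between 3.52 and 4.36 and Ghrl (ghrelin) between 3.21 and 4.0.

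Of the 33 granule and processing genes 26 were above the dim range. Pcsk1, the convertase that cleaves proglucagon in L cells, read 4.13, 6.22 and 4.46 in KO rosiglitazone arrays, 4.49 and 4.67 in KO vehicle arrays, 4.24, 5.33 and 4.30 in WT rosiglitazone arrays and 5.91 and 4.73 in WT vehicle arrays. The high arrays were KO rosiglitazone replicate 2 and both arrays of WT mouse 42, and no comparison passed. Within the 4 mice with both arrays Pcsk1 read lower under rosiglitazone in each, with differences of -0.37 and -0.21 in KO mice 46 and 44 and of -0.58 and -0.43 in WT mice 42 and 47. The share of probe sets with 1 sign in all 4 mice was not counted. The KO response was 0.35 (SE 0.58, adjusted p = 1) in the fit over all arrays, which includes the unpaired mouse 45, and -0.29 with the mouse as a fixed block. Cadps, a priming factor for dense-core vesicle release, was at 4.49 and 4.15 in the rosiglitazone and vehicle arrays of WT mouse 42 and between 1.94 and 2.54 in the other 8. The genes with the highest means, Pam, Vamp2, Rab3d and Aplp1, are also used by other cells.

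Serotonin handling genes other than Tph1 were above the dim range in 7 of 11 cases. Slc18a1, which encodes the vesicular monoamine transporter of enterochromaffin cells, read 4.07, 4.97 and 4.50 in KO rosiglitazone arrays, 4.29 and 4.25 in KO vehicle arrays, 3.69, 3.93 and 4.04 in WT rosiglitazone arrays and 3.96 and 4.16 in WT vehicle arrays. KO arrays lay above WT arrays under both treatments, narrowly so under rosiglitazone (4.07 against 4.04). Over all probe sets 39.1% separated under vehicle and 8.69% under rosiglitazone, in either direction. KO minus WT was 0.63 (SE 0.20, limma adjusted p = 0.931) under rosiglitazone, or 0.40 without KO rosiglitazone replicate 2, and 0.21 (SE 0.25, adjusted p = 0.905) under vehicle. Ddc, the decarboxylase that completes serotonin synthesis, lay between 4.41 and 6.32 with the groups overlapping. Maoa, which degrades serotonin, lay between 8.35 and 9.08. Qdpr and Pts, which regenerate and make the tetrahydrobiopterin cofactor of tryptophan hydroxylase, lay between 8.08 and 8.47 and between 5.62 and 6.23.

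Of 22 transcription factors of the lineage 13 were above the dim range, led by Foxa1, Sox4, Etv1 and Foxa2, all of them also used outside enteroendocrine cells. Atoh1 and Foxa2 varied most, and their KO minus WT under rosiglitazone was 0.39 (SE 0.40, adjusted p = 0.999) and -0.47 (SE 0.22, adjusted p = 0.999). Without KO rosiglitazone replicate 2 they were -0.04 and -0.55. Of 22 receptors 10 were above it. Ffar4, the long-chain fatty acid receptor (GPR120), lay between 7.14 and 7.76 in every array. Gpr35, a metabolite receptor of the gut epithelium, lay between 4.95 and 6.04. Slc5a1, the glucose transporter SGLT1, lay between 4.23 and 6.69, with WT rosiglitazone arrays below WT vehicle arrays, groups that 15.4% of all probe sets separated in either direction. Slc15a1, the peptide transporter, lay between 3.58 and 5.68, with KO vehicle arrays above WT vehicle arrays, groups that 39.1% of all probe sets separated. Neither Slc5a1 nor Slc15a1 passed in any comparison.

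Among 20 Notch and secretory fate genes 17 were above the dim range and 5 were highest in replicate 2. The list mean was 5.39 to 5.66 in KO rosiglitazone arrays, 5.46 to 5.58 in KO vehicle arrays, 5.49 to 5.59 in WT rosiglitazone arrays and 5.47 to 5.54 in WT vehicle arrays, and 0 of its genes passed the adjusted threshold. Its highest value was that of KO rosiglitazone replicate 2 and the ranges of the groups overlapped.

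The 6 members above the dim range were also compared with each other and with the rest of the array by Pearson correlation over the 10 arrays, as a description. Pairs that looked alike did so partly through 1 array. Chgb and Pyy correlated at 0.64 over 10 arrays and at -0.08 without KO rosiglitazone replicate 2, and Gcg and Chgb at 0.68 and 0.14. Gcg and Cpe kept 0.83 and 0.79, and Gcg and Sct 0.83 and 0.67. Sct and Pyy varied less than the median receptor gene, which limits what their pairs can show. The chromogranins correlated with the mucin Muc2, Chgb at 0.91 and Chga at 0.84 over 10 arrays, and at 0.79 and 0.75 over 9. Other secretory markers held less well. With Reg4, Chgb went from 0.84 to 0.46 and Chga from 0.62 to 0.26. With Atoh1, Chgb went from 0.66 to 0.19 and Chga from 0.82 to 0.69. The other members compared did not share this. With Muc2, Gcg went from 0.58 to 0.05, Pyy from 0.39 to -0.46, Cpe from 0.38 to 0.02 and Sct from 0.47 to -0.04. Over 9 arrays Gcg, Pyy, Cpe and Sct were at -0.35, -0.75, -0.46 and -0.18 with Atoh1. With Reg4 they were at 0.15, 0.15, 0.24 and -0.16. These points share donors, and 9 or 10 arrays give a wide range by chance.

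Of 2224 genes above the dim range with an SD of at least 0.30, the 3 with the pattern most like that of Cpe were Nipal4 (r = 0.98), Fam3c (0.92) and Lpcat1 (0.91), with 0.98, 0.94 and 0.91 over the 9 arrays without KO rosiglitazone replicate 2. For Chga they were Cox10 and Slc19a1 (0.93 each) and Cd24a (0.91), and for Chgb Dclk1 (0.93), Usp17la (0.92) and Pla2g2a (0.92). For Gcg they were A530032D15Rik (0.89), Thrb (0.87) and Cpe (0.83), with 0.79, 0.67 and 0.79 over the 9 arrays. Sct and Pyy were set against 2225 such genes. Their own SDs of 0.18 and 0.15 were below the receptor genes' median of 0.21, so no likeness is read from their matches. Sct was most like Dagla (0.91), H2-DMa (0.90) and A530032D15Rik (0.86), with 0.86, 0.87 and 0.73 over the 9 arrays, and Pyy was most like Gm1123, Vpreb1 (0.91 each) and Nxpe2 (0.88), with 0.75, 0.75 and 0.67. For Chgb the values over the 9 arrays were 0.76, 0.73 and 0.71, and for Chga 0.89, 0.90 and 0.90. The matches of Cpe and Chga changed least without replicate 2.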

How the data were processed

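RNA of 10 colonic organoid samples from 6 mice was hybridised to Affymetrix arrays. The deposited table holds log2 expression of 35556 probe sets, made with RMA per the submitters' processing notes. RMA corrects background, quantile-normalizes and summarises probes, and the sources used here do not state its version. Array medians lay between 3.54 and 3.72. Arrays give no read depth, and their number limits the precision.

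Of the probe sets, 23099 were in the platform annotation and were tested, 21218 of them with a single symbol (18820 genes, the probe set with the highest mean standing for a gene). Differences were tested with limma 3.58.1 (R 4.3.3): lmFit with 4 group means over all 10 arrays, contrasts, eBayes, two-sided, Benjamini-Hochberg adjusted over the 23099, threshold 0.05. The p-values measure the spread between arrays of different mice within each group, pooled over the 4 groups. The labels give each array its mouse, and 4 mice gave both treatments. The main fit treated the 10 arrays as independent, so the pooled spread counts those mice in both treatments. Its 6 residual degrees of freedom may thus be too many, and the unadjusted p-values for KO against WT too small. The difference between 2 mice correlated across treatments at 0.487 in KO and 0.44 in WT. Donor blocks (random, consensus correlation 0.438, statmod 1.5.0, or fixed), centring, repeated quantile normalization, a filter on dim probe sets, other sample sets, another prior and leaving out each array were alternatives. The fit was tested on simulated data.

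The members, 15 further gene lists and the naming rule were chosen with earlier results of these data known. All members are named; of the 5 wider enteroendocrine lists the 4 genes of highest mean and the 2 of largest SD; of other cell lists the 3 of highest mean, given where a result touches them; and the 3 most similar genes per member above the dim range. Promoters come from RefSeq (GRCm38.p6), 9 of 10 members matched.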

Additional observations from a re-analysis of the deposited data

Results flagged for a closer look

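For 3 of the 10 enteroendocrine genes, against 11.8% of the probe sets tested, both KO mice with arrays of both treatments moved one way under rosiglitazone and both WT mice the other way. For Cpe the KO mean minus the WT mean of the within-mouse responses was 0.79 on the log2 scale, from 0.49 in KO and -0.30 in WT mice. For Tph1 it was 0.27, from 0.14 in KO and -0.14 in WT mice, in the dim range. For Pyy it was 0.09, from 0.08 in KO and -0.01 in WT mice, where the WT changes were close to 0. With the mouse as a fixed block in limma, which compares the treatments inside each mouse, the difference of responses had an adjusted p of 0.843 for Cpe, the smallest of these 3 genes. In the fit over all 10 arrays without the block it was 1 for each of these genes. The share of genes with such opposite signs was not tested against the background.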

How the results depend on the processing

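None of the 50 member differences passed the threshold in any of the 875 values from 19 alternative settings, and the smallest adjusted p among them was 0.532. The sign held in every setting for 23 of the 50 and turned somewhere for 27. Neurog3 turned to -0.40 in the KO response with the donor as a fixed replicate block and with only the 4 mice with both treatments, and ranged from -0.40 to 0.24 when single arrays were left out. Its KO minus WT under rosiglitazone turned to -0.17 with those 4 mice and ranged from -0.03 to 0.60, and its difference of responses turned to -0.32 with the fixed replicate block. Cck turned to -0.13 in the WT response with the fixed block. Leaving out single arrays, the WT response of Gcg ranged from -0.36 to 0.33, KO minus WT of Chga under vehicle from -0.53 to 0.46 (0.46 also without mouse 46) and KO minus WT of Chgb under rosiglitazone from -0.03 to 0.79.

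Calls over all probe sets in the KO response were 1 with the donor as a random replicate block, in place of 0. For KO against WT under vehicle the count was 0, and it was 1 with the random block, repeated quantile normalization or only bright probe sets, 2 with centring or another prior, 4 with only the groups compared, 6 with the 4 mice, and 0 to 6 when single arrays were left out (6 without WT rosiglitazone replicate 1). Under rosiglitazone it was 5, and 1 with quantile normalization, only the groups compared or without mouse 46, 16 with the 4 mice, and 1 to 23 when single arrays were left out (23 without WT rosiglitazone replicate 1). The cause was not tested. The count of members above the dim range was 3 at the stricter percentile and 1 at the median of all probe sets, in place of 6. The mean of several probe sets was not run, because each member has 1. Arrays of 2 or 3 mice a group limit every comparison, and 4 members lay in the dim range, where signal over background limits what can be measured. Gcg also averaged in that range in every group but KO rosiglitazone.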
